A study of Mus musculus with 10 samples.

Results

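The genes described here are 10 members of a circuit that controls pre-mRNA splicing, chosen by symbol from a list of temperature-sensitive CLK kinases and SR-family splicing factors. They are the kinases Clk1, Clk2, Clk3 and Clk4, the serine/arginine-rich (SR) proteins Srsf2, Srsf3, Srsf5, Srsf6 and Srsf7, and the SR-like factor Tra2a. All 10 were found among 57010 rows of gene values, and all 10 were among the 15539 genes abundant enough to test. RNA was sequenced from retinas of mice aged 6 to 8 weeks after an injection into the vitreous of an adeno-associated virus (AAV) vector carrying the reporter green fluorescent protein. The vector was AAV2-GFP in 5 mice and AAV206-GFP in 5 mice, and retinas were collected 14 days later. AAV2 is a natural serotype widely used as a gene vector, AAV206 is the name the labels give the other vector, and the study's title speaks of a vector for the retinal pigment epithelium without naming it. All 10 mice therefore carried an AAV capsid, a GFP cargo and an injection, and each difference below is between the vectors, since uninjected retinas were not analysed here. The promoter that drives GFP, the strain and sex of the mice, and whether retinas were pooled are not given in the sources used here.

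SR proteins bind short sequences in exons and recruit the splicing machinery through tails rich in arginine and serine. CLK kinases (CDC2-like kinases) phosphorylate these tails, which releases SR proteins from nuclear speckles, and their activity falls as body temperature rises. Many genes of the circuit regulate themselves through unproductive transcripts, by keeping an intron in the RNA or by including a "poison" exon with an early stop codon, and such transcripts are held in the nucleus or destroyed by nonsense-mediated decay.

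With AAV206-GFP, 3 of the 10 genes were lower than with AAV2-GFP and none was higher. Tra2a was lower by 21.9%, Srsf7 by 15.7% and Srsf6 by 14.7% (edgeR adjusted p = 0.00461, 0.0264 and 0.0184; n = 5 per group). Over all tested genes 11.2% passed the same test, with 5.30% of all tested genes lower and 5.95% higher. Among the 3824 genes whose mean level lay in the range of the 10 genes, 15.6% passed, and 7.43% passed as lower. None of the 4 kinases passed. The log2 fold change (AAV206-GFP over AAV2-GFP, written log2FC below) was below 0 for 9 of the 10 genes, against 51.8% of all tested genes, and the median over the 10 genes was -0.16, against -0.0095 over all tested genes. An unadjusted p under 0.05 was reached by 7 of the 10 genes and by 28.0% of all tested genes. The genes were proposed with earlier results of these data known, so these counts describe them and are not independent evidence of a direction.

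Total counts ranged from 10989843 to 12752604 per library, and at least 603 counts supported every value of the 10 genes in every library. Levels are in CPM, counts per unit of library size after scaling between libraries. Retinal markers were present in every library, with 5 Müller glia genes summing to 2607 to 3526 CPM with AAV2-GFP and 2765 to 3182 CPM with AAV206-GFP, and 5 bipolar genes to 671 to 944 CPM and 623 to 1056 CPM. None of 5 Müller glia, 5 bipolar, 6 ganglion cell or 3 tested retinal pigment epithelium genes passed, and the last 3 summed to 4.04 to 18.9 CPM over all libraries. However, 2 Müller glia genes passed as lower without AAV2-GFP replicate 1 and 1 without AAV206-GFP replicate 1. Likewise, 1 retinal pigment epithelium gene passed as lower without AAV2-GFP replicate 2. DESeq2 called 1 Müller glia gene as higher and 1 as lower, and 1 ganglion cell gene as lower. The 5 erythrocyte genes summed to 67.8 to 85.8 CPM with AAV2-GFP and 100.6 to 319 CPM with AAV206-GFP, and 4 of 5 were higher by edgeR. The 6 lens genes summed to 10.4 to 31.9 CPM and 0.345 to 11.3 CPM, with Lim2 at 0 throughout. The 2 tested lens genes were lower, but none passed without AAV2-GFP replicate 5 and 1 passed without AAV206-GFP replicate 3. The 6 microglia and macrophage genes summed to 20.03 to 136 CPM and 16.3 to 21.2 CPM, the highest value being AAV2-GFP replicate 1. Of 5 tested, C1qa was lower. None passed without AAV2-GFP replicate 1 or AAV206-GFP replicate 1, 2, 4 or 5, while 4 passed without AAV2-GFP replicate 2 and 2 without AAV2-GFP replicate 5. None of the 6 T lymphocyte genes was abundant enough to test. The part of these markers in the results below was not tested. In whole tissue, fewer cells of a type and less RNA per cell cannot be told apart.

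Within the AAV206-GFP group, replicate 1 stood apart for these genes. It held the highest value of its group for 6 of the 10 genes (Clk1, Clk3, Clk4, Srsf2, Srsf5 and Srsf6) and the lowest for Srsf3 and Tra2a. It also held the highest lens sum of its group, at 8.83 CPM over the tested genes against 0.182 to 0.897 CPM in the other 4 libraries. Without it, 5 of the 10 genes passed as lower, with Clk3 and Srsf5 added to the 3 named above. In that fit 1384 of all 15702 tested genes passed, 610 of them as lower. Extreme values also gathered in libraries of the other group. AAV2-GFP replicate 2 held the lowest value of its group for 5 of the 10 genes and the highest for 2. AAV2-GFP replicate 3 held the highest for 5 and the lowest for 1. Calls that other libraries decide are named with each gene.

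**Figure D1:**
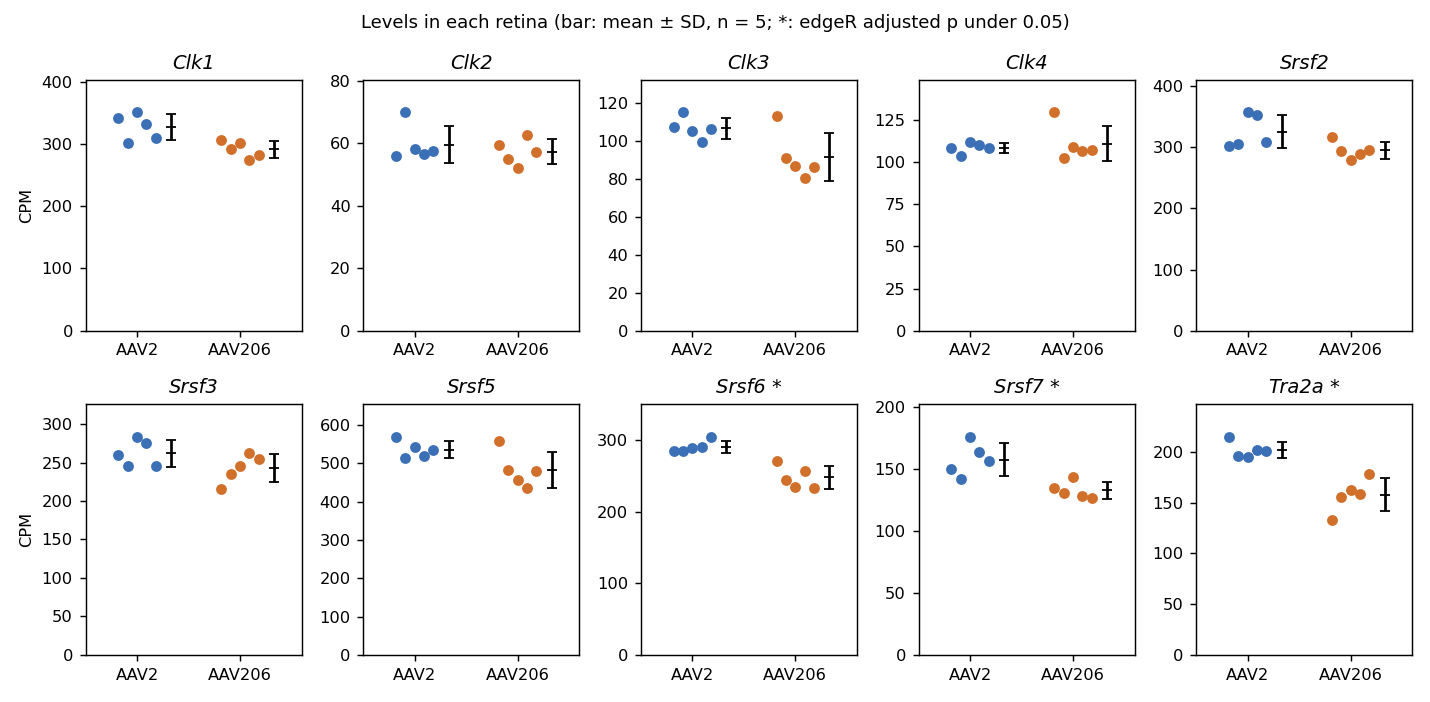
Level of each of the 10 genes in each retina, in CPM on linear axes that start at 0, with 1 point per library in the order of replicate numbers and a bar for the mean ± SD of 5. Srsf6 and Tra2a show no overlap between AAV2-GFP and AAV206-GFP, while Clk4 differs mainly in 1 AAV206-GFP library at 129.7 CPM.

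Tra2a (ENSMUSG00000029817) encodes transformer-2 alpha, an SR-like protein that promotes inclusion of exons rich in GAA repeats. Its levels with AAV2-GFP were 215.0, 196.5, 195.3, 202.4 and 200.8 CPM in the order of replicate numbers, and with AAV206-GFP they were 133.4, 156.0, 162.6, 158.5 and 178.7 CPM. Every AAV206-GFP library lay below every AAV2-GFP library, and replicate 1 was the lowest. The means were 202 ± 7.84 and 158 ± 16.3 CPM (SD, n = 5), with a log2FC of -0.36 (SE 0.07, 95% interval -0.51 to -0.21; edgeR adjusted p = 0.00461). Tra2a ranked 419 of 15539 genes by p-value. It passed in all 10 fits that left out 1 library, with adjusted p-values between 0.00236 and 0.0166 in edgeR, and in all 12 other alternatives.

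Its paralog Tra2b encodes a protein with the same target preference. Tra2b had 124 ± 10.5 and 119 ± 3.28 CPM (SD, n = 5), with a log2FC of -0.058 (SE 0.06, edgeR adjusted p = 0.587), and its counts were shared with other loci in all 10 libraries. The ratio of Tra2a to Tra2b per library averaged 1.64 ± 0.178 in the AAV2-GFP retinas and 1.32 ± 0.130 in the AAV206-GFP retinas (SD, n = 5). The ratios of the groups overlapped, since AAV206-GFP replicate 5 was at 1.49 and AAV2-GFP replicate 3 at 1.43. This ratio was picked with its values in view and was not tested.

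Srsf6 (ENSMUSG00000016921) encodes SRp55, an SR protein with a pair of RNA recognition motifs. Its levels were 285.2, 284.4, 288.5, 290.6 and 304.5 CPM with AAV2-GFP and 270.7, 244.5, 234.5, 256.2 and 233.3 CPM with AAV206-GFP. The groups did not overlap, and AAV206-GFP replicate 1 came closest to the other group. The means were 291 ± 8.15 and 248 ± 15.7 CPM (SD, n = 5), with a log2FC of -0.23 (SE 0.06, 95% interval -0.35 to -0.11; edgeR adjusted p = 0.0184). Leaving out AAV206-GFP replicate 3 ended the call (log2FC -0.21, edgeR adjusted p = 0.0533), as did leaving out AAV2-GFP replicates 1 and 4 together (-0.25, edgeR adjusted p = 0.0589). Together with Tra2a, it made 2 of 10 genes without overlap between groups, against 9.78% of all tested genes.

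Srsf7 (ENSMUSG00000024097) encodes 9G8, an SR protein with a zinc knuckle that also takes part in mRNA export. Its levels were 150.1, 141.7, 176.0, 163.4 and 156.6 CPM with AAV2-GFP and 134.4, 131.0, 143.7, 128.5 and 126.3 CPM with AAV206-GFP. The groups overlapped through AAV206-GFP replicate 3, which lay above AAV2-GFP replicate 2. The means were 158 ± 13.1 and 133 ± 6.80 CPM (SD, n = 5), with a log2FC of -0.25 (SE 0.07, 95% interval -0.39 to -0.11; edgeR adjusted p = 0.0264). This call was lost in 5 of the 10 fits that left out 1 library, namely without AAV2-GFP replicate 3 or 4 or AAV206-GFP replicate 2, 4 or 5 (edgeR adjusted p = 0.0559, 0.0692, 0.0630, 0.0606 and 0.0506), and without AAV2-GFP replicates 1 and 4 together (0.0685). The log2 fold change stayed between -0.28 and -0.21 in all 10.

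**Figure D2:**
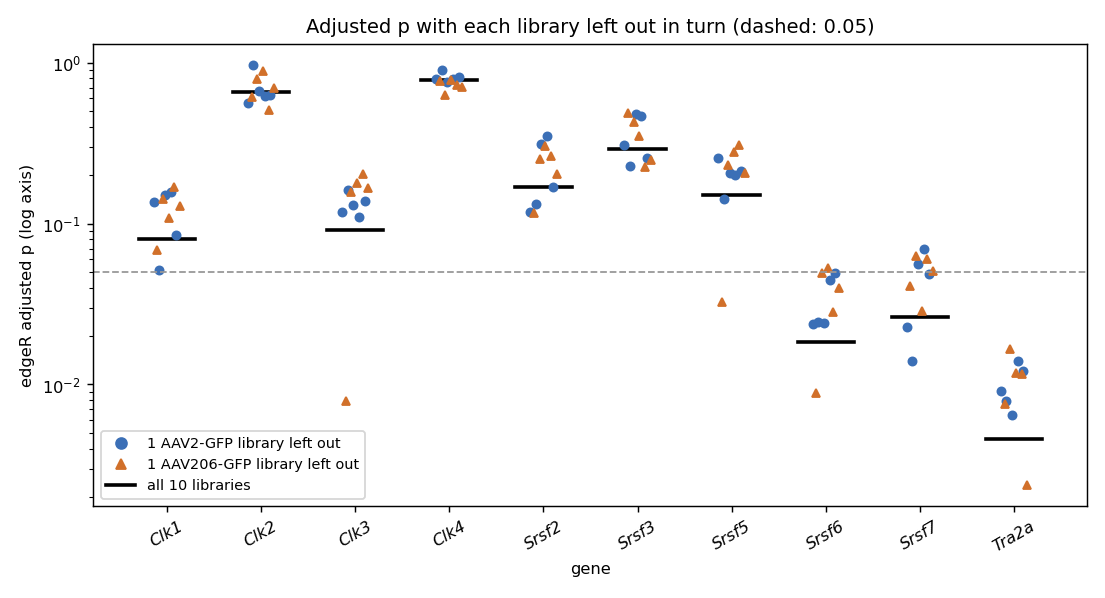
The edgeR adjusted p (log axis) of each gene with all 10 libraries (bar) and with 1 AAV2-GFP library (circle) or 1 AAV206-GFP library (triangle) left out, against the threshold of 0.05 (dashed). Tra2a stays below the threshold in all 10 fits and Srsf7 in 5, and Clk3 and Srsf5 go below it once, without AAV206-GFP replicate 1.

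In the GENCODE M21 annotation of GRCm38 (mm10), Srsf7, Tra2a and Srsf3 each have a transcript marked for nonsense-mediated decay with a poison exon. This internal exon holds the stop codon of that transcript and overlaps no exon of a protein-coding transcript. Whether it also occurs in transcripts that keep an intron or in other processed transcripts was not checked. The last bases before and including this stop are shown because they are the place where these members end their own reading frame early; the stop codon is in capitals.
Tra2a, exon of 306 bases at chr6:49252803-49253108, minus strand: aaaaaattgaacagaagattggtcagaTAG
Srsf7, exon of 460 bases at chr17:80204622-80205081, minus strand: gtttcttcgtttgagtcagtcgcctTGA
Srsf3, exon of 456 bases at chr17:29039454-29039909, plus strand: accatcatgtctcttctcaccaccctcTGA
Over the 10 genes the same annotation lists 92 transcripts, of which 30 are protein-coding, 15 are marked for nonsense-mediated decay, 36 keep an intron and 11 are other processed transcripts. Clk1 has 13 transcripts, of which 1 is protein-coding and 7 keep an intron, and Clk4 has 14, of which 7 keep an intron. The deposited values are sums per gene, so productive and unproductive transcripts were not separated, and a lower gene value does not say which kind was lower.

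The sequence upstream of the start site is shown for the 3 genes that passed and for Clk4, the kinase whose estimate lay on the other side of 0. Windows of 250 bases before the start came from RefSeq (GRCm38.p6), which matched 9 of the 10 genes (all but Clk1), and stretches that overlap an annotated exon were left out of the printed sequence. Capitals mark the cyclic AMP response element TGACGTCA, or its last 6 letters ACGTCA alone, on either strand.
Tra2a, chr6:49264053-49264302, minus strand: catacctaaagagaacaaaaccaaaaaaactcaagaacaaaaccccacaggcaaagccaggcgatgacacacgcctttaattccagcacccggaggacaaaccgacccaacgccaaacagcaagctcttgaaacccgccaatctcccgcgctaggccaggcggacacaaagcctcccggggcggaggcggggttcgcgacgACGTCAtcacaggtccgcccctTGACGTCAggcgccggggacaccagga
Srsf6, chr2:162931258-162931507, plus strand: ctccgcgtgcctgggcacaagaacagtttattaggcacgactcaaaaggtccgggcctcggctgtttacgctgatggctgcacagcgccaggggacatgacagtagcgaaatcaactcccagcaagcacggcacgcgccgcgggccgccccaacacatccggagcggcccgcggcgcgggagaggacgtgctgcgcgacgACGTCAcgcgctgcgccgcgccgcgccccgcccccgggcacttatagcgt
Srsf7, chr17:80207308-80207459, minus strand: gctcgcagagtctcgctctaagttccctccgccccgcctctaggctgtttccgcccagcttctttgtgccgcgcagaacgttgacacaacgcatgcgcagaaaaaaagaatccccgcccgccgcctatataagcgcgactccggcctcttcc
Clk4, chr11:51263047-51263113, plus strand: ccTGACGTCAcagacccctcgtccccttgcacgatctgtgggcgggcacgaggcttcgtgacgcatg
TGACGTCA occurred in 2 of the 9 windows, in Tra2a from 27 bases and in Clk4 from 65 bases before the start, and in 1.55% of 32851 windows of the same length. ACGTCA, which TGACGTCA contains, occurred in 4 of the 9 (Clk4, Srsf3, Srsf6 and Tra2a) and in 6.47% of all windows. The heat shock element letters GAANNTTC and TTCNNGAA, each its own reverse complement, occurred in none of the 9 windows and in 6.69% and 7.17% of all windows. The part of either element in the levels of these genes was not tested. These are matches of letters in a window and not sites of binding.

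Clk1 (ENSMUSG00000026034) is a nuclear kinase whose own pre-mRNA is often kept with introns. Its levels were 342.7, 302.0, 350.9, 332.1 and 309.1 CPM with AAV2-GFP and 307.4, 291.5, 301.5, 273.7 and 282.9 CPM with AAV206-GFP. The groups overlapped through 1 library, AAV206-GFP replicate 1, which lay above AAV2-GFP replicate 2. The means were 327 ± 21.1 and 291 ± 13.6 CPM (SD, n = 5), and its log2FC of -0.17 did not pass (95% interval -0.30 to -0.04; edgeR adjusted p = 0.0806). DESeq2 gave a log2FC of -0.17 with an adjusted p of 0.0250, where adjusted p-values over the other alternatives, including the fits that left out a library, reached 0.263.

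Clk4 (ENSMUSG00000020385), the closest relative of Clk1, had means of 109 ± 3.16 and 111 ± 10.7 CPM (SD, n = 5) in that order of groups, with a log2FC of 0.033 (95% interval -0.11 to 0.17; edgeR adjusted p = 0.778). The AAV2-GFP libraries lay between 103.6 and 111.9 CPM. In AAV206-GFP 4 libraries lay between 102.5 and 109.4 CPM and replicate 1 was at 129.7 CPM, and without that library the estimate was -0.028. The ratio of Clk1 to Clk4 was 3.15, 2.92, 3.14, 3.01 and 2.85 with AAV2-GFP and 2.37, 2.84, 2.76, 2.56 and 2.63 with AAV206-GFP. The lowest AAV2-GFP ratio lay just above the highest AAV206-GFP ratio, a description of a ratio chosen after its values were seen.

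Clk3 (ENSMUSG00000032316), a kinase known for its abundance in testis, was at 107.4, 115.0, 105.1, 99.3 and 106.4 CPM with AAV2-GFP and 113.2, 91.2, 86.5, 80.5 and 86.1 CPM with AAV206-GFP. In 4 AAV206-GFP libraries it lay below all AAV2-GFP libraries, and replicate 1 lay within their range. Its log2FC of -0.22 (SE 0.08) did not pass (edgeR adjusted p = 0.0916). Without AAV206-GFP replicate 1 it was -0.31 (SE 0.06, edgeR adjusted p = 0.00792), a change of call by 1 library. Decimals in 9 libraries show that Clk3 shares reads with another locus, and 1284 bases of its exons overlap Edc3 on the other strand, so its level is uncertain.

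Clk2 (ENSMUSG00000068917) had the lowest level per length of the 10 genes and was at 59.6 ± 5.82 and 57.3 ± 4.05 CPM (SD, n = 5), with a log2FC of -0.057 (95% interval -0.22 to 0.10; edgeR adjusted p = 0.661). AAV2-GFP replicate 2 was at 69.9 CPM and the other libraries of its group at 56.0 to 58.2 CPM. Without that library the estimate was 0.0057, so its sign rested on 1 library. The intervals for Clk2 and Clk4 do not show that the groups were alike.

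Srsf5 (ENSMUSG00000021134), an SR protein also named SRp40, had the highest level per length of the 10 genes. It was at 569.3, 512.9, 541.5, 519.9 and 533.6 CPM with AAV2-GFP and 559.1, 483.7, 455.3, 434.9 and 478.9 CPM with AAV206-GFP. Again 4 AAV206-GFP libraries lay below the whole AAV2-GFP group and replicate 1 lay within it. Its log2FC of -0.15 (SE 0.07) did not pass (edgeR adjusted p = 0.152), and without AAV206-GFP replicate 1 it was -0.21 (SE 0.06, edgeR adjusted p = 0.0326).

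Srsf2 (ENSMUSG00000034120), also named SC35 and a marker protein of nuclear speckles, lay between 303.0 and 357.4 CPM with AAV2-GFP and between 279.0 and 317.7 CPM with AAV206-GFP. Its log2 fold change was -0.14 (95% interval -0.28 to -0.0035; edgeR adjusted p = 0.168). Srsf3 (ENSMUSG00000071172), the smallest SR protein, lay between 245.5 and 283.4 CPM and between 215.5 and 262.7 CPM, with log2FC -0.11 (95% interval -0.25 to 0.03; edgeR adjusted p = 0.291). Neither passed, and the groups overlapped in both. Both genes carried decimals in all 10 libraries, so reads were shared with other loci, and exons of Srsf2 overlap Mettl23 and Mfsd11 on the other strand, which leaves their levels uncertain.

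**Figure D3:**
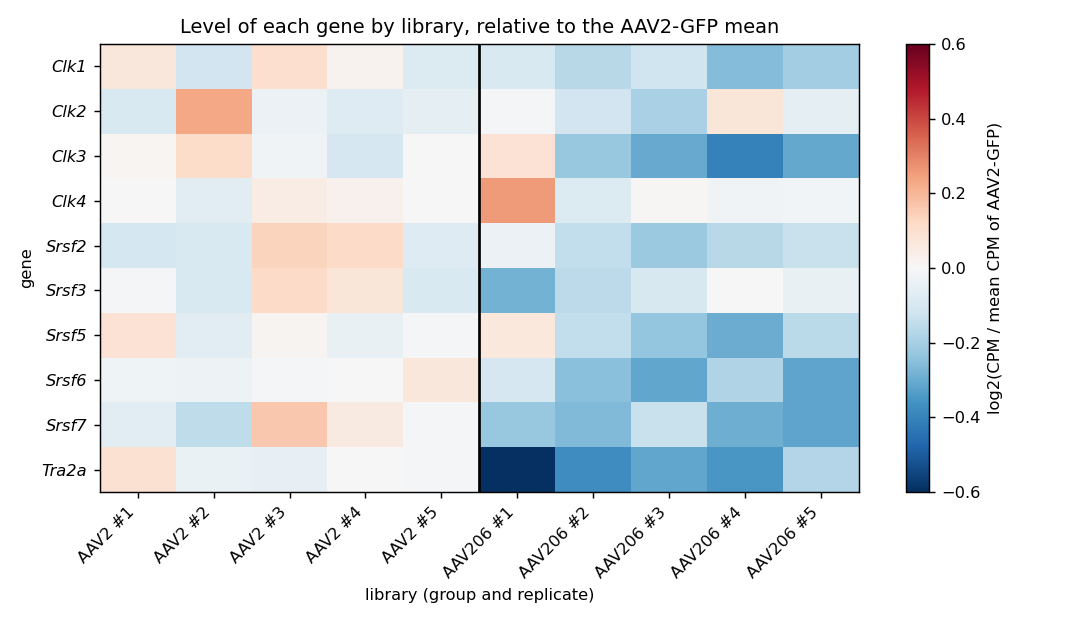
Level of the 10 genes (rows) in the 10 libraries (columns; the number is the replicate) as log2 of the ratio to the AAV2-GFP mean, from blue (lower) to red (higher). The AAV206-GFP columns are mostly blue, replicate 1 of that group is red for Clk3, Clk4 and Srsf5, and its Tra2a cell is the darkest blue.

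Levels between genes were compared per kilobase of the longest protein-coding transcript. With AAV2-GFP the order was Srsf5 at 341 (range 327 to 363), Clk1 at 182 ± 11.8, Srsf2 at 171 ± 14.3, Tra2a at 112 ± 4.36, Srsf3 at 100.1 ± 6.56 and Srsf6 at 82.4 ± 2.31 CPM per kilobase (SD, n = 5). Srsf7, Clk4 and Clk3 followed at 65.6 ± 5.44, 55.8 ± 1.62 and 42.7 ± 2.25 CPM per kilobase, and Clk2 was last at 27.7 (range 26.0 to 32.4). Only Clk1 and Srsf2 overlapped as neighbours in this order. With AAV206-GFP, Tra2a at 87.7 ± 9.04 stood behind Srsf3 at 92.7 ± 7.00, and Srsf7 at 55.3 ± 2.83 behind Clk4 at 57.1 ± 5.47 CPM per kilobase, although the members of each of these pairs overlapped. These levels depend on the transcript taken for the length, since unproductive transcripts differ in length.

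After the group means were subtracted, 26 of the 45 pairs of genes had a Pearson correlation above 0 over the 10 libraries, with a median of 0.07. Without AAV206-GFP replicate 1, 21 of the 45 pairs were above 0, with a median of -0.03. Some pairs of genes that were both highest of their group in AAV206-GFP replicate 1 had high values that dropped without it, and others did not. The highest pair, Clk3 and Srsf5, went from 0.82 to 0.36 over the remaining 9 libraries. Clk3 and Clk4 went from 0.66 to -0.73, and Clk4 and Srsf5 from 0.75 to -0.0037. By contrast, Clk1 and Clk4 went from 0.57 to 0.60, and Clk1 and Srsf5 from 0.59 to 0.52. Clk1 and Srsf7 were at 0.70 and 0.73, and Clk3 and Srsf3 at -0.85 and -0.77. These values share libraries and depth, rest on few mice and are a description only. The genes most like Clk1 by this measure among 14957 with a mean of at least 1 CPM were Laptm4a, Rnf113a1 and Nprl3 (Pearson r = 0.95, 0.95 and 0.94 over 10 libraries). Those most like Srsf3 were Taf13, Thyn1 and Grm2 (Pearson r = 0.93, 0.93 and 0.92). No test was made of these values.

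The other SR proteins did not pass the test. Of 7 (Srsf1, Srsf4, Srsf9, Srsf10, Srsf11, Srsf12 and Tra2b) none passed in edgeR with TMM scaling or in limma-voom, against 11.2% of all tested genes in edgeR. An unadjusted p under 0.05 was reached by 1 of the 7, against 28.0% of all tested genes. A list of 7 genes is too short to tell these counts from those shares. No contrast with the CLK and SR genes that passed is drawn from them. DESeq2 called Srsf11 as higher, and edgeR with upper-quartile scaling called 1 gene as higher. Their median log2FC was -0.058. Srsf1, the founding SR protein, was at 420 ± 14.1 and 414 ± 16.0 CPM (SD, n = 5), with a log2FC of -0.023 (SE 0.05, edgeR adjusted p = 0.811). The gene with the smallest p, Srsf11, was estimated as higher, from 170.3 ± 4.82 to 194 ± 14.8 CPM (log2FC 0.19, edgeR adjusted p = 0.0561), and passed without AAV206-GFP replicate 5 (0.0301).

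A further list held other kinases, phosphatases and import factors of SR proteins, together with relatives of these kinases. Of its 16 tested genes 3 passed, 2 as higher and 1 as lower. The share that passed was 11.2% of all tested genes and 15.6% of genes in the level range of the 10 CLK and SR genes. Tnpo3, the importin that carries phosphorylated SR proteins into the nucleus, rose from 74.7 ± 2.49 CPM to 88.7 ± 4.81 CPM (SD, n = 5), with a log2FC of 0.25 (edgeR adjusted p = 0.0135). Hipk3, a nuclear kinase of the DYRK-related family, rose from 281 ± 23.6 CPM to 335 ± 23.5 CPM, with a log2FC of 0.26 (edgeR adjusted p = 0.0281). Ppp1ca, a catalytic subunit of protein phosphatase 1, fell from 127 ± 13.9 CPM to 107 ± 6.65 CPM, with a log2FC of -0.25 (edgeR adjusted p = 0.0448), with shared reads in all 10 libraries. Srpk1 and Srpk2, the SR protein kinases of the cytoplasm, both missed the threshold, at log2FC -0.15 and -0.17 (edgeR adjusted p = 0.172 and 0.0606). DESeq2 called Srpk2 as lower (adjusted p = 0.0110), and its groups did not overlap. Tnpo3 passed in all 10 fits that left out 1 library and Hipk3 in 6 (not without AAV2-GFP replicate 4 or AAV206-GFP replicate 2, 3 or 4). Ppp1ca passed only without AAV2-GFP replicate 1 or AAV206-GFP replicate 5, with edgeR adjusted p-values up to 0.107 in the other 8 fits.

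Of 37 SR-related proteins 30 did not pass, 3 were higher and 4 lower, a share called of 18.9% against 11.2% of all tested genes and 15.6% of genes in the level range of the 10 CLK and SR genes. Their median log2FC was 0.063. Rsrp1, an arginine and serine rich protein, rose from 547 ± 22.8 CPM to 883 ± 114 CPM (SD, n = 5), with a log2FC of 0.69 (SE 0.08, edgeR adjusted p = 3.7e-05). Every AAV206-GFP library exceeded every AAV2-GFP library for Rsrp1, and AAV206-GFP replicate 1 was highest at 1077 CPM. Pnisr fell from 418 ± 20.7 CPM to 349 ± 4.66 CPM, with a log2FC of -0.26 (edgeR adjusted p = 0.00536). Srrm3, which promotes neuronal microexons, fell from 125 ± 6.93 CPM to 100.2 ± 10.2 CPM, with a log2FC of -0.32 (edgeR adjusted p = 0.00954). Son and Luc7l2 also rose, and U2af2 and Zrsr1 also fell. Rsrp1, Son, Pnisr, Srrm3 and Zrsr1 passed in all 10 fits that left out 1 library. Luc7l2 passed in 7 (not without AAV2-GFP replicate 4 or AAV206-GFP replicate 2 or 3), and U2af2 in 4 (without AAV2-GFP replicate 1 or 2 or AAV206-GFP replicate 1 or 5).

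Of 24 hnRNP proteins, which often oppose SR proteins at exons, 3 passed (12.5%), all lower, with a median log2FC of -0.026. Over all tested genes 11.2% passed, and 5.30% passed as lower. Among genes in the level range of the 10 CLK and SR genes, 15.6% passed, and 7.43% passed as lower. Hnrnpa2b1 fell from 666 ± 18.5 CPM to 527 ± 21.1 CPM (SD, n = 5), with a log2FC of -0.34 (SE 0.05, edgeR adjusted p = 0.000664). Hnrnpc fell from 218 ± 18.1 to 169 ± 4.88 CPM (log2FC -0.37, edgeR adjusted p = 0.00158), and Hnrnph3 from 128 ± 5.60 to 103 ± 11.4 CPM (log2FC -0.31, edgeR adjusted p = 0.0123). Of 15 nonsense-mediated decay factors, which remove poison exon transcripts, none passed in edgeR, DESeq2 or limma-voom, against 11.2% of all tested genes in edgeR. An unadjusted p under 0.05 was reached by 4 of the 15 (Eif4a3, Casc3, Magoh and Upf1), against 28.0% of all tested genes. Of 9 long RNAs held in the nucleus, none passed in edgeR or limma-voom, and DESeq2 called Meg3 as higher. Of these 9, Meg3 and Rian had an unadjusted p under 0.05. The unadjusted counts of both lists are near the 28.0% of all tested genes. Both lists are too short to tell their lack of edgeR calls from the 11.2% of all tested genes. All 3 hnRNP genes passed in all 10 fits that left out 1 library. DESeq2 called 4 of the 24 hnRNP genes as lower and 2 as higher, the latter being Hnrnpa1 and Hnrnpdl (adjusted p = 0.0464 and 0.0165). Over all 28442 genes with any count DESeq2 called 1060 as lower and 1123 as higher. The edgeR fit without AAV206-GFP replicate 5 also called 4 hnRNP genes as lower and 2 as higher. Over all 15713 genes tested in that fit, 802 passed as lower and 928 as higher. Meg3 passed without AAV2-GFP replicate 2 (edgeR adjusted p = 0.0377).

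**Figure D4:**
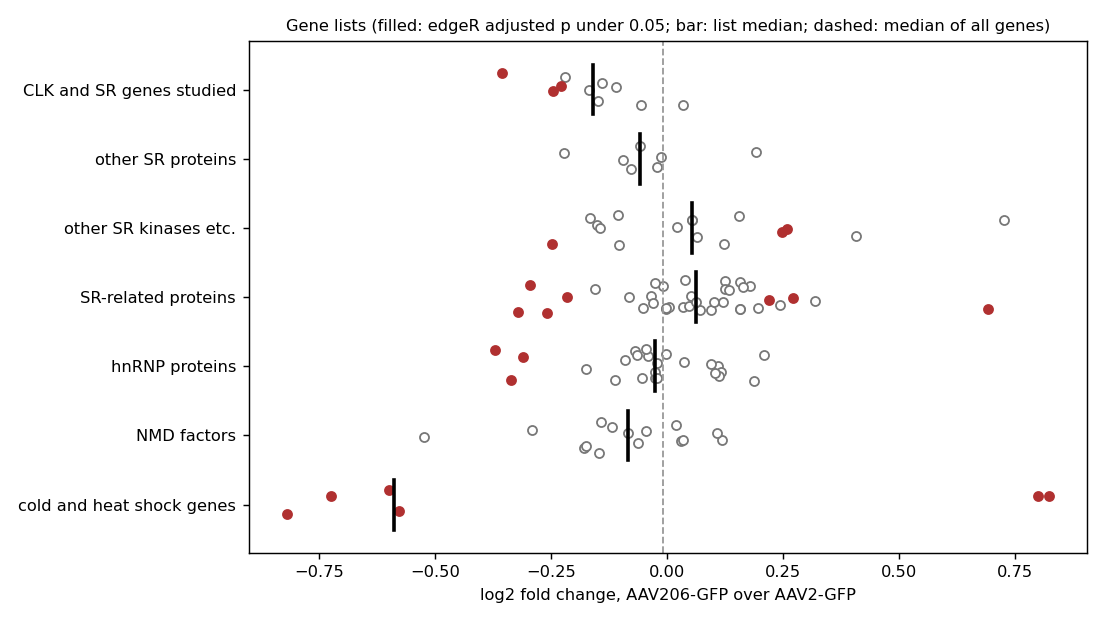
log2 fold change of AAV206-GFP over AAV2-GFP for each tested gene (points, 1 row per list, spread vertically for legibility), filled where the edgeR adjusted p was under 0.05, with the list median as a bar and the median of all genes dashed. The 10 CLK and SR genes have a median of -0.16 with 3 filled points, while both cold-inducible genes and all 4 heat shock genes are filled, at opposite ends.

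Since CLK activity depends on temperature, the cold-inducible and heat shock genes were set beside the 10 genes. Rbm3, a cold-inducible RNA-binding protein, was at 70.2 to 93.2 CPM with AAV2-GFP and 139.9 to 160.0 CPM with AAV206-GFP, with a log2FC of 0.80 (edgeR adjusted p = 1.2e-05). The highest Rbm3 value was in AAV206-GFP replicate 5, with the rest of that group, replicate 1 included, at 139.9 to 144.9 CPM. Cirbp, its relative, rose from 123 ± 3.61 CPM to 217 ± 28.8 CPM (SD, n = 5), with a log2FC of 0.82 (edgeR adjusted p = 1.4e-05). Its highest value, 266.4 CPM, was in AAV206-GFP replicate 1. The heat shock genes Hspa1a, Hspa1b, Hsph1 and Dnajb1 were all lower (Hspa1a and Hspa1b are near-identical copies that share reads), Hsph1 with log2FC -0.82 and its lowest value, 38.3 CPM, in the same library. All 6 genes passed, against 11.2% of all tested genes. Their changes were larger than that of any of the 10 CLK and SR genes, and all 6 passed in every fit that left out 1 library. These 6 genes were also chosen with earlier results of these data known, so the count describes them and is not independent evidence. Their part in the levels of Tra2a, Srsf6 and Srsf7 was not tested, and the temperature of the animals or of the tissue is not given in the sources used here.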

How the data were processed

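RNA of 10 retinas was sequenced as read pairs of 150 bases from NEBNext Ultra RNA libraries, per the labels' protocols, and use of strand in counting is not given in the sources used here. The deposited values are estimated counts per gene, made by the authors with STAR 2.7.10b and RSEM 1.3.1 on mm10, per the submitters' processing notes. The annotation release and any filter are not given in the sources used here. Decimals occurred in 5.95% of values and mark reads divided between genes, so values were rounded. Symbols came from GENCODE M21, which named 98.4% of tested genes.

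All genes kept by filterByExpr (minimum count 10) were fitted together in edgeR 4.0.16 (R 4.3.3) with TMM scaling and a quasi-likelihood F test, without covariates. Benjamini-Hochberg adjustment ran over all 15539 genes at 0.05. Positive log2 fold changes mean higher with AAV206-GFP. Standard errors are the absolute log2 fold change over the square root of F, and 95% intervals use the test's degrees of freedom. CPM uses the TMM-adjusted library size, and 3 counts correspond to 0.232 to 0.274 CPM, counting error only.

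The 10 genes and all lists were chosen with earlier results of these data known. All 10 are named. Each list of related genes gives up to 3 names, the lowest p-values among those that passed, with Srsf1, Tra2b, Srpk1, Srpk2, Rbm3 and Cirbp in any case; other genes named from these lists, and cell markers named singly, were chosen after their values were seen. Likeness used log2(CPM + 1). A cell marker result is not reported here.

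Pairs of libraries within a group differed by 3.69 to 22.3 chi-square units per degree of freedom, so none was taken as a duplicate. The labels describe 5 mice per group without tying each library to a mouse, so p-values measure the spread between these libraries. The fit was tested on simulated data, with changed genes drawn at random from all tested genes. It called 5 of 50 genes changed 1.25-fold, 28 of 49 changed 1.5-fold and 47 of 48 changed 2-fold. Of 136 calls 8 were false. Small changes were thus often missed, and a gene that did not pass was not shown to be alike in both groups. Alternatives used other scalings, filters, DESeq2 1.42.0, limma-voom (limma 3.58.1), robust dispersions, a replicate block, truncation and left-out libraries.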

Additional observations from a re-analysis of the deposited data

Results flagged for a closer look

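In 52 groups of 5 libraries, for the 10 genes and the 16 related genes given by the naming rule, the gap of the most extreme library to its nearest neighbour was compared with the range of its group, with a limit of 0.71 that chance passes in about 1 in 20 groups, or 2.6 of 52. It was passed 4 times. Clk2 was at 69.9 CPM in AAV2-GFP replicate 2, against 56.0 to 58.2 CPM in the other libraries of the group. Clk4 was at 129.7 CPM in AAV206-GFP replicate 1, against 102.5 to 109.4 CPM. Rsrp1 was at 1077 CPM in the same library, against 779 to 860 CPM. Rbm3 was at 160.0 CPM in AAV206-GFP replicate 5, against 139.9 to 144.9 CPM.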

How the results depend on the processing

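Of 220 recomputed log2 fold changes of the 10 genes, 206 kept their direction and side of the threshold, 9 lost the call (Srsf6 and Srsf7), 3 gained it (Clk1, Clk3 and Srsf5) and 2 reversed. The reversed values were 0.0057 for Clk2 without AAV2-GFP replicate 2 (range -0.091 to 0.0057 when 1 library was left out) and -0.028 for Clk4 without AAV206-GFP replicate 1 (range -0.028 to 0.061). The number of the 10 genes that passed was 2 to 5 when 1 library was left out, the 5 coming without AAV206-GFP replicate 1, and 1 (Tra2a) when AAV2-GFP replicates 1 and 4 were left out together. The number of all genes that passed was 991 to 1912 when 1 library was left out and 985 without AAV2-GFP replicates 1 and 4, and fewer libraries were fitted in each. The lowest counts came without AAV2-GFP replicate 4 (991) and without AAV206-GFP replicates 4 (1056) and 2 (1074). With the replicate number as a block, 1085 genes passed, Srsf6 was lost (edgeR adjusted p = 0.0570) and Srsf7 and Tra2a passed. Libraries with the same number did not deviate together (correlations of deviations from the group means between -0.05 and 0.04, with 1 of 5 closest to its own number), so the number does not pair them. Other scalings moved the median of all genes by less than 0.02 log2 units. Depth was at least 603 counts for every value of the 10 genes, and libraries of a group differed by more than counting error.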
